A study of Mus musculus with 51 samples.

Results

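Open chromatin inside introns was examined in neutrophils that had entered an inflamed air pouch. A site was counted as intronic if it lay more than 1000 bp from every annotated gene start, overlapped the body of a gene and touched no exon. Of the 47164 merged sites of open chromatin that the authors deposited, 14607 (31.0%) met this rule, 13401 lay within 1000 bp of a gene start, 5457 touched an exon farther away and 13699 lay outside genes. The 14607 sites fell in 5952 host genes, of which 5936 had a symbol, and 841 sites lay inside more than 1 gene. A host is the gene whose body holds the site. It need not be the gene the site acts on.

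Introns hold many of the enhancers of mammalian genomes. An enhancer is a stretch of DNA where transcription factors bind and open the nucleosome array, and it can raise transcription from a start site that lies far away. Neutrophils are short-lived phagocytes that leave the marrow, circulate and enter inflamed tissue, and the factors NF-kB, AP-1, IRF, RUNX, C/EBP and PU.1 are known to act at enhancers of their inflammatory genes.

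The mice received 100 µg zymosan, a yeast cell wall particle, in an air pouch made 6 days earlier, and 4 h later neutrophils were taken from the bone marrow, the blood, the membrane lining the pouch and its exudate. The labels name no group without zymosan. ATAC-seq, which reads the DNA that a transposase can reach, was run on 75000 Ly6G+ cells per library, with 2 libraries for each tissue, and the deposited lists give no value for a single library. Neutrophil RNA came from CX3CR1GFP Ly6GCre-tdTomato mice, with 5 libraries of exudate, 5 of blood, 3 of bone marrow and 2 of membrane. The labels give no age. ER-Hoxb8 cells are conditionally immortalised mouse progenitors that become neutrophils when estrogen is removed. They were grown for 5 days with G-CSF and then given DMSO or 50 µg/ml zymosan for 2 h, with 2 libraries a group. The labelled knockouts of set 1 are CEBPB-/- and JUNB-/-, those of set 2 are IRF5-/- and RELB-/-, and each set has its own wild type. Cells labelled RUNX1-/- or KLF6-/-, used here with DMSO only, are set against the wild-type DMSO libraries of set 2. Whether a line is 1 clone, and whether its 2 libraries are separate cultures, is not given in the sources used here, so p-values measure only the spread between libraries, which may be technical.

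The tissue RNA held the neutrophil markers at a summed 86500 to 348000 CPM (the genes' counts scaled to a common library size) in exudate and 191000 to 311000 in blood. Monocyte and macrophage markers summed to 1260 to 2360 CPM in exudate and 1070 to 2300 in blood, B cell markers to 0.396 to 208 and 47.3 to 257, and T and NK cell markers to 0.23 to 10.2 and 3.16 to 61.9. Dendritic cell markers summed to 1.38 to 407 CPM in exudate, with a median of 137, and to 3.03 to 60.9 in blood, with a median of 34.0. Fibroblast, endothelial and keratinocyte markers summed to 0.994 to 78.9 in exudate and 2.69 to 22.1 in blood. Their part in the results was not tested, and in bulk samples fewer cells of a type and less RNA per cell cannot be told apart. The 15 tissue libraries correlated poorly within groups (Spearman rho 0.356 to 0.714), against 0.992 or more between the 2 libraries of each ER-Hoxb8 group. The tissue columns also carry a number, 100 or 300, that no label explains: 100 for 2 exudate, 3 blood and all 3 bone marrow libraries, and 300 for the other 3 of exudate, 2 of blood and both of membrane. Total counts ran from 9237737 to 19106125 read pairs in the tissues and from 19366969 to 34263252 in the ER-Hoxb8 cells.

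Sequence was at hand only in the RefSeq gene start windows, 250 bp before to 50 bp after a start in the GRCm38.p6 assembly, that overlapped an intronic site. This held for 110 sites (0.753%), 6 of them opened and 3 closed. Sites in the deposited list of higher accessibility in exudate than in blood are called opened here, and those in the list of lower accessibility closed. These starts are RefSeq starts inside a gene whose outermost annotated start lies elsewhere, so some intronic sites are internal or neighbouring promoters. Of the 9 windows at changed sites, 4 are shown, which were chosen after their values were seen: those of 3 hosts described below and 1 more with an AP-1 match. Each window is labelled with its host. The start is that of Gm13523 in the Fam129b window and of Gm46183 in the Srgap1 window, not of these hosts. In the Trim30a and Gm31718 windows it is a RefSeq start of the host itself. The strand given is that of the RefSeq gene. Capitals mark matches to motif letters that were searched on both strands after the data had been seen. The letters were TGANTCA for AP-1, TGTGGT for RUNX, TTGCNNAA for C/EBP, GAGGAAG for PU.1, GAAANNGAA for IRF and GGGANTTTC for NF-kB.
Trim30a, chr7:104446076-104446375, minus strand, opened: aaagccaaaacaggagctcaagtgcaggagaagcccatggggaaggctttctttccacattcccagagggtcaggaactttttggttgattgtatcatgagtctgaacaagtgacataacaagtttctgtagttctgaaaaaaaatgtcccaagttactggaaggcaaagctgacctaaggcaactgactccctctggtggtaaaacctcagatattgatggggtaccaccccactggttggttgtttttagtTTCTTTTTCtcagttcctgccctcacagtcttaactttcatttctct
Gm31718, chr8:126853199-126853498, minus strand, opened: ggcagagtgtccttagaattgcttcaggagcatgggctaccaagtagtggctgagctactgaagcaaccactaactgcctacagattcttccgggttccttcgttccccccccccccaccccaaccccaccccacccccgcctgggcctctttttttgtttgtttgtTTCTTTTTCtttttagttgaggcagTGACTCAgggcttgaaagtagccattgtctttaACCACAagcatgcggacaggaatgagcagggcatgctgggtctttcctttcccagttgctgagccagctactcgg
Fam129b, chr2:32882823-32883033, minus strand, opened: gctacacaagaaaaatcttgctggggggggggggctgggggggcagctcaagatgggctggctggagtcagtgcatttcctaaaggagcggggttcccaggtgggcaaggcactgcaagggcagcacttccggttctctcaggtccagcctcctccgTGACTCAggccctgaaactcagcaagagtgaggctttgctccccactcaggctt
Srgap1, chr10:121796052-121796351, plus strand, closed: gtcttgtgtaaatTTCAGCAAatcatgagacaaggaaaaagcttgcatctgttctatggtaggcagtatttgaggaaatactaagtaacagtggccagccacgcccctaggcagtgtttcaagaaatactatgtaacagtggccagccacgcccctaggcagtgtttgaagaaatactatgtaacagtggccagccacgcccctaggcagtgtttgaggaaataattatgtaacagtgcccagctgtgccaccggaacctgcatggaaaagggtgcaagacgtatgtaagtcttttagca
The Trim30a window held 1 match to the IRF letters, which occur in 8.56% of the 32851 mouse start windows. The Gm31718 window held 1 match each to the AP-1 letters (7.81% of windows), the RUNX letters (16.8%) and the IRF letters. The Fam129b window held 1 AP-1 match and the Srgap1 window 1 match to the C/EBP letters (10.8%). The PU.1 letters occur in 13.6% and the NF-kB letters in 1.11% of windows, and neither was found in these 4. No match overlapped another. A match is only a run of letters and does not show that the factor binds.

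In 9 of the 10 deposited lists of differential sites, the share of intronic sites that was listed lay above the share of gene-start sites that was. In the authors' deposited lists, 1099 intronic sites were opened, 7.52% of the class, beside 6.01% of all merged sites, 3.36% of gene-start sites, 5.15% of exon sites and 7.33% of sites outside genes. Another 454 (3.11%) were closed, beside 2.3% of all sites and 0.918% of gene-start sites. Intronic sites and sites outside genes thus had similar shares, and gene starts had lower ones. Neighbouring sites can share an enhancer, so the sites are not independent and the classes were not tested against each other.

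**Figure D1:**
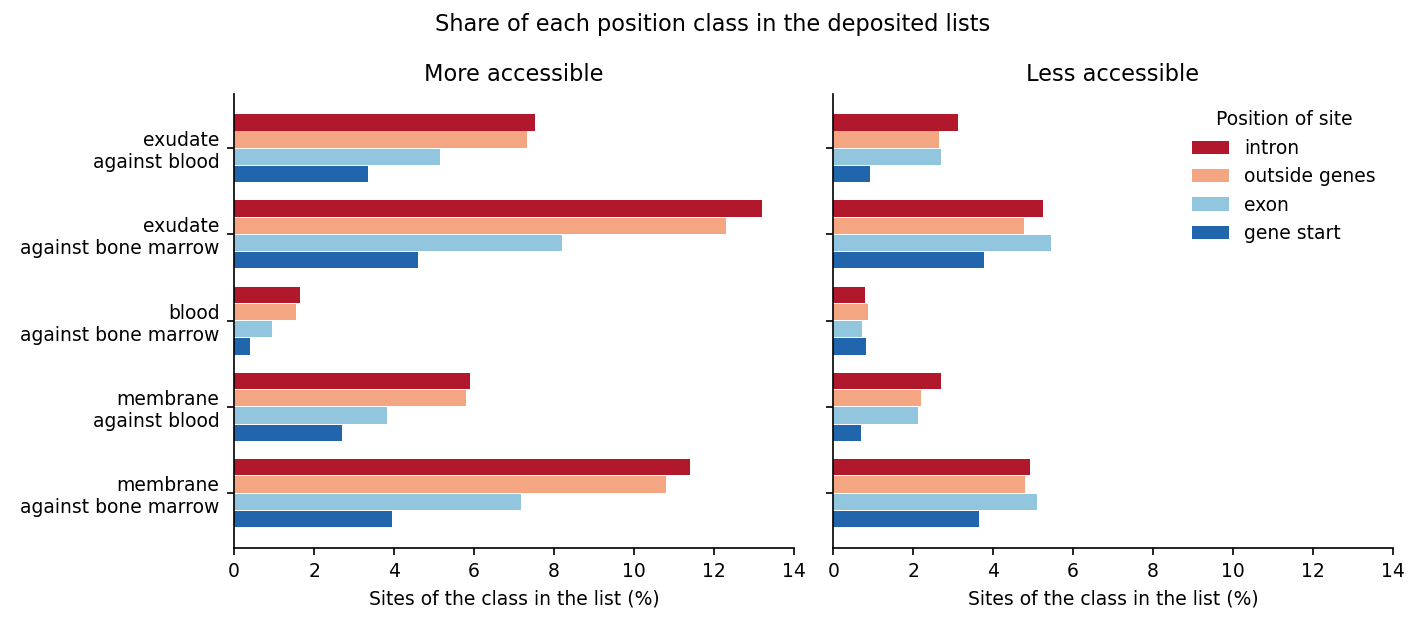
Share of the sites of each position class (horizontal axis, %) that are in each of the 10 deposited lists, more accessible at left and less accessible at right. Intronic bars reach 13.2% for exudate against bone marrow, while gene-start bars stay at 4.6% or below.

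The other comparisons gave counts of 1930 intronic sites with higher accessibility in exudate than in bone marrow (13.2% of intronic sites, 9.93% of all) and 768 with lower (5.26%, 4.72% of all). Membrane against bone marrow gave 1660 (11.4%, 8.6% of all) and 718 (4.92%, 4.55% of all), and membrane against blood 863 (5.91%, 4.72% of all) and 394 (2.7%, 1.92% of all). Blood against bone marrow gave the shortest lists, 240 more accessible (1.64%, 1.19% of all) and 115 less accessible (0.787%, 0.812% of all). In this last list the intronic share lay just below the background and that of gene starts at 0.821%. In all, 3655 intronic sites (25%) were in at least 1 of the 10 lists, against 20.0% of all merged sites, and 10952 were in none.

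Exudate against blood and membrane against bone marrow share no library. Of the 1099 opened sites, 830 (75.5%) had higher accessibility in membrane than in bone marrow too, which is 50.0% of that list, and 0 had lower. Over all merged sites these shares were 74.4% and 52.0%. Of the 454 closed sites, 189 (41.6%) had lower accessibility in membrane than in bone marrow, 26.3% of that list, and 2 had higher. Over all merged sites these shares were 42.2% and 21.4%. For exudate against bone marrow and membrane against blood, which also share no library, 730 intronic sites were higher in both, 37.8% and 84.6% of the 2 lists, and 164 lower in both, 21.4% and 41.6%. Over all merged sites these shares were 39.8% and 83.7%, and 18.2% and 44.9%. In that second pair 0 intronic sites were listed in opposite directions, and 5 of all merged sites.

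Opened and closed sites differed little from the rest in width and lay at somewhat different distances from gene starts. The median width was 530 bp over all intronic sites and 556 bp for the opened and 555 bp for the closed ones. The median distance to the nearest gene start was 14970 bp over all, 13440 bp for opened and 17030 bp for closed sites. Between the first and second annotated exons of the host lay 26.2% of all intronic sites, 31.8% of the opened and 24.9% of the closed ones. The opened share was 9.81% at 1000 to 2000 bp from a start, 8.95% at 2000 to 5000 bp, and 6.85% to 7.36% in each range beyond 5000 bp. The shares were alike on the 2 sides of the 1000 bp limit: 10.3% of the 458 sites between it and 1500 bp were opened, and 10.7% of the 563 sites between 500 bp and the limit, which are not counted as intronic.

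The opened sites with the highest values lay in Msl2, Gm31718 and Gm37228. The authors' deposited lists rank sites by -log10 of an adjusted p, which measures evidence and not size, and they give no value for each library. The site in Msl2, which encodes a chromatin regulator of the MSL complex (chr9:101097519-101098027), had 44.8 against blood, 73.6 against bone marrow, and 38.6 and 65.5 for membrane against the same 2 tissues. The site in Gm31718, an unnamed transcript that is also overlapped by A630001O12Rik (chr8:126847659-126848522), had 44.8 against blood. The authors assigned it to Irf2bp2, a neighbouring gene. The site in Gm37228 (chr3:133626236-133626973), which they assigned to Tet2, an enzyme that oxidises methylated cytosine, had 44.1. By the highest site of each host, the next were in Tnfaip3 (40.3), Ttc39c (38.5), Ankrd13a (35.5), Plec (34.3), N4bp1 (30.3), Ralgds (30.1), Smad3 (29.3), Rab11fip1 (26.6) and Creb5 (26.5). All 12 were also listed as higher in exudate against bone marrow and in membrane against blood and bone marrow, comparisons that share libraries.

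Tnfaip3 encodes A20, an inhibitor of NF-kB signalling and one of its targets. The centre of its single intronic site (chr10:19009300-19009857) lay 6078 bp from the gene's start, in gap 4 of the 8 between its merged exons. It was higher in exudate than in blood (40.3) and bone marrow (20.5), and in membrane than in blood (31.3) and bone marrow (12.6). It was lower in blood than in bone marrow (6.85). Pde4b, a phosphodiesterase that breaks down cyclic AMP, held a site with the same order, at 20.9 for exudate against blood and 2.95 for the loss in blood against bone marrow. The site in Birc3, an inhibitor of apoptosis, did too, at 7.59 and 1.38.

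The closed site with the highest value lay in Lrrc8d, a subunit of volume-regulated anion channels (chr5:105718048-105718709), at 27.4 against blood and 6.43 against bone marrow. It was higher in blood than in bone marrow (8.27). By the highest site of each host, the next were in Gm17767 (16.9), Srgap1 (15.1), Senp6 (14.9), Crtac1 (14.7), Il1r2 (14.2), Pabpc1l (14.2), Zfp652 (13.7), Bcas3 (12) and Mxi1 (11.9). Il1r2 encodes the decoy receptor of interleukin-1, and 3 of its 10 intronic sites were closed and 0 opened. Between blood and bone marrow, the highest values among sites higher in blood were those in Glipr2 (15.3), Cxcr5 (13.5), Plekhg3 (12.9) and Gcnt2 (11.2). Sites in Tmprss3 (12.8), Igsf5 (11.2, inside Itgb2l too), Csgalnact1 (8.94) and Macrod1 (7.14) were lower in blood, and each of these 4 was also lower in exudate than in bone marrow, at 36.6, 31.2, 11.4 and 12.

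Some host genes changed at many sites. The 1099 opened sites fell in 768 hosts, 223 of them with 2 or more and 82 with 3 or more, and the 454 closed sites in 388 hosts. Gm31718 had 12 of its 19 sites opened. Sik3, a kinase held in check by protein kinase A, had 10 of 21, and Arid5b, a chromatin-binding factor, 10 of 19. Aff1, a part of the super elongation complex, had 7 of 20, Fmnl2, an actin-nucleating formin, 7 of 20, and Rbpj, the DNA-binding partner of Notch, 6 of 8. None of these 6 had a closed site.

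The opened sites of Arid5b lay 1.95 to 154 kb from the start, with values of 2.95 to 6.22. Those of Sik3 lay 34.5 to 164 kb from the start, at 3.05 to 17.0, and those of Gm31718 12.9 to 75.1 kb, at 1.58 to 44.8. Hdac4, a histone deacetylase of the class that represses through bound factors, had 6 of 18 sites closed, all 134 to 233 kb from its start. Cradd, a death-domain adaptor, had 4 of 8 closed within 142 to 145 kb, at the far end of the gene, and Sorl1, a sorting receptor, 4 of 10. Gm20388 also had 6 closed sites, but it is a 4430 kb annotation that spans many other genes, with 112 intronic sites. Of all intronic sites, 41 had it as their only host, and 0 of those was opened or closed.

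**Figure D2:**
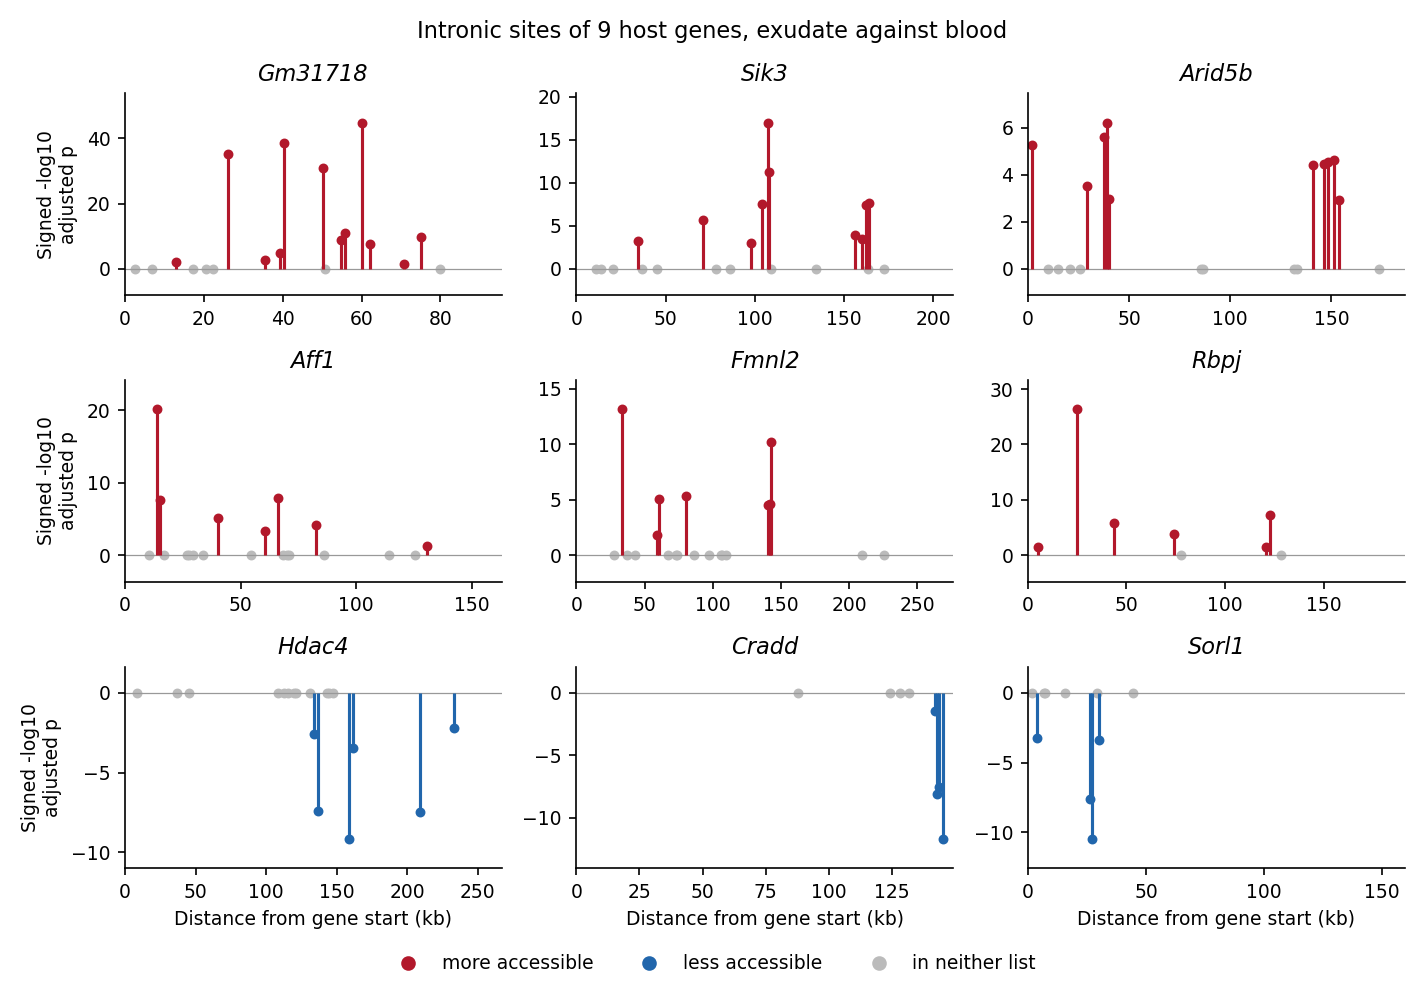
Intronic sites of the 9 host genes other than Gm20388 with the most changed sites, by distance from the gene start (horizontal axis, kb) and by the authors' -log10 adjusted p for exudate against blood (vertical axis, below 0 for closed sites). In Gm31718, 4 sites stand above 30, and in Cradd the 4 closed sites lie together 142 to 145 kb from the start.

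Hosts with more sites held a larger share of opened ones. Of sites alone in their host 4.46% were opened, of sites in hosts with 2 to 4 sites 6.81%, with 5 to 9 sites 8.98%, and with 10 or more sites 9.71%. The median gap between neighbouring opened sites of a host was 9004 bp, against 6798 bp between neighbours over all intronic sites. In 58 hosts some sites were opened and others closed. Il1rap, the shared subunit of the interleukin-1 and interleukin-33 receptors, had a site 44569 bp from its start that was opened (11) and one 109876 bp from it that was closed (2.78). Etv6, an ETS repressor, had 4 sites opened and 1 closed, and Il15, a cytokine for lymphocytes, 1 and 1.

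Most start sites of these hosts were in neither list. Of the 768 hosts of an opened intronic site, 575 had a merged site within 1000 bp of their own start, and at 67 of them (11.7%) a start site was opened as well, while at 506 no start site was in either list. Among the 2410 hosts of unlisted intronic sites with a start site, 65 (2.7%) had an opened start, and among all 3955 hosts with one, 151 (3.82%). Tnfaip3, Sik3, Arid5b, Aff1, Cflar and Smad3 were among the hosts whose start sites were in neither list. Trim30a, Tlr4, Cd274, Birc3 and Nfkbie had an opened start site as well. Of the 280 hosts of a closed site with a start site, 9 (3.21%) had a closed start and 4 (1.43%) an opened one.

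In genes of the NF-kB pathway, a larger share of sites than of all intronic sites was opened. Of 22 genes in this list, 17 held intronic sites, 11 of these had an opened site, and 0 a closed one. By sites, 13 of 39 (33.3%) were opened, beside 7.52% of all intronic sites. Only 3.11% of all intronic sites were closed, so 0 closed among 39 says little. The 11 were Birc3, Map3k14, Map3k8, Nfkb1, Nfkbib, Nfkbie, Rel, Tnfaip3, Tnip1, Traf1 and Traf3. Rel, a subunit of NF-kB, held 1 site at 11.9 (chr11:23754192-23754697), Nfkbie, an inhibitor that holds NF-kB in the cytoplasm, 1 at 14.5, and Map3k14, the kinase of the noncanonical pathway, one at 10.6. In 2 of the 17 genes a site was lower in blood than in bone marrow.

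Interferon-stimulated genes and regulators of survival likewise had larger shares of opened sites than the 7.52% of all intronic sites. Of 13 interferon-stimulated hosts 8 had an opened site and 0 a closed one, and 10 of 21 sites (47.6%) were opened. The site of Trim30a, a tripartite-motif protein induced by interferon, had 21.2, that of Ifi207, of a DNA-sensing family, 18, that of Slfn1, a growth regulator of lymphocytes, 9.1, and that of Ifi204 6.83. The family copies on chromosome 1 are alike, so reads may be split among them. Of 14 survival and death hosts 7 had an opened site and 0 a closed one, and 12 of 35 sites (34.3%) were opened. With 3.11% of all intronic sites closed, the absence of closed sites in these short lists says little. Cflar, which blocks caspase-8, had 6 of its 7 sites opened, the strongest at 26.2 (chr1:58742435-58742991). Bcl2a1a and Bcl2a1b, near-identical antiapoptotic genes between which reads may be split, had 1 each, at 6.36 and 6.99.

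Feedback inhibitors had 6 of 11 hosts with an opened site (Cd274, Irak3, Pde4b, Pde4d, Ptpn6 and Tnfaip3) and 1 with a closed one, Dusp4, while 12.9% of all 5952 hosts had an opened site and 6.52% a closed one. By sites, 26.7% of this list was opened, beside 7.52% of all intronic sites. Pattern recognition genes had 7 of 13 hosts with an opened site, 21.2% of sites, and 1, Dock2, with closed ones. The site of Syk, the kinase downstream of fungal lectin receptors, had 10.2, that of Nod1, an intracellular sensor of bacterial cell wall, 6.81, and that of Tlr4, the receptor of lipopolysaccharide, 6.24. Adhesion and migration genes went both ways. Of 26 hosts, 13 had an opened site, 14.9% of sites, among them Vav1 (15.5) and Fgr (9.07), and 5 a closed one, 5.41% of sites. These were Dock8 (6.91), Itgb2 (4.55), Dock2 (3.53), Plaur (3.42) and Myo1f, and Dock2 and Itgb2 were in both groups. All 3 intronic sites of Plaur, the urokinase receptor, were closed.

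Transcription factors of myeloid cells had 11 of 26 hosts with an opened site, among them Bach1 (23.0), Etv6 (14.4), Spi1 (11.4) and Irf2 (9.2), and 4 with a closed one, Klf7 (4.1), Etv6 (3.47), Stat5b (2.91) and Ets1 (2.71). By sites, 22 of 200 (11%) were opened and 2.0% closed, beside 7.52% and 3.11% of all intronic sites. Receptors of cytokines and chemoattractants had 4 of 22 with an opened site (Il1rap, Ptafr at 10.6, Csf1r at 4.69 and Fpr2 at 3.85) and 2 with a closed one. By sites, 6.78% of this list was opened, near the share of all intronic sites. The same share, 6.78%, was closed, beside 3.11% of all intronic sites. Metabolic and hypoxia genes had 6 of 18 with opened sites, including Sod2 (15.5), Hk1 (6.35) and Pfkfb3 (4.69), and 2 with closed ones, Hdc (3.64) and Alox5 (3.0), with 11 of 79 sites (13.9%) opened. Cytokines had few intronic sites: 5 of 25 genes were hosts, with an opened site in Il1rn, the interleukin-1 receptor antagonist, at 7.82, and an opened and a closed one in Il15. Of the AP-1 and immediate early genes 8 of 22 were hosts, with Batf at 7.68 and Nr4a3 at 5.26, the only opened sites of 15 (13.3%). Granule proteins had 1 of 10 with an opened site, Ltf (4.83), 1 of 26 sites (3.85%).

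Lists of other cell types were also read. B cell, dendritic cell and eosinophil or mast cell markers had 0 hosts with a changed site between exudate and blood. They held only 4, 7 and 1 intronic sites, and 7.52% of all intronic sites were opened, so these zeros say little. Erythroid markers held 0 intronic sites. Of 3 T and NK cell hosts, 1 had an opened site, at 24.6, in Trac, which the authors assigned to its neighbour Dad1. Monocyte and macrophage markers had 2 of 3, Cx3cr1 (9.82, assigned to Xirp1 by the authors) and Csf1r. By sites, 6 of 17 (35.3%) in this list were opened, beside 7.52% of all intronic sites. Of the 13 intronic sites of Cx3cr1, 5 were opened. Among the progenitor markers, Cdk6 (12.9) and Erg (7.65) had opened sites, and 9 of 40 sites of this list (22.5%) were opened. Pecam1 (7.14) had an opened site among the markers of endothelium. Neutrophils express Pecam1 too. In exudate RNA all 12 monocyte and macrophage markers and 9 of 12 T and NK cell markers had counts, Trac had 0 CPM in all 5 libraries, and Cx3cr1 at most 0.267 CPM. Csf1r had 0, 42.0, 14.6, 0.0891 and 0.841 CPM in exudate and 142, 12.5, 15.8, 39.9 and 0.0482 in blood. The part of other cells in these sites was not tested.

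Of the 6 factors named in the labels of the knockout lines, Cebpb and Irf5 held 0 intronic sites. The single site of Relb was in no list, and that of Junb was higher in membrane than in bone marrow (3.3). Runx1 held 20 intronic sites, of which 1, 2333 bp from the gene's start, was opened (5.27). Another, 24352 bp from the start, was lower in exudate than in bone marrow (4.49). All 3 sites of Klf6 were higher in exudate than in bone marrow, at 3.65, 6.62 and 8.3, and the one 4841 bp from the start also against blood, at 4.17.

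In tissue RNA, edgeR called no host of an opened site. Of the 768 hosts of an opened site, 634 passed the filter on low counts, and edgeR's quasi-likelihood test called 0 higher and 0 lower at a Benjamini-Hochberg adjusted p under 0.05, as it did for 0% of all 12330 genes in either direction. At an unadjusted p under 0.05 there were 71 of these hosts and 2349 of all genes. DESeq2 called 10 hosts higher and 19 lower of 559 (1.79% and 3.4%), beside 0.968% and 9.9% of all 9195 genes with an adjusted p. With the column number as a term of the fit, edgeR again called 0 hosts, beside 0% of all genes. The median log2 fold change of the hosts was 0.78, against -0.35 over all genes, and that of the hosts of closed sites was -0.13. The hosts were also more abundant, with a median log2 CPM of 5.17 for opened and 4.14 for closed sites against 2.19 over all genes. The part of abundance in the tissue medians was not tested. Between exudate and bone marrow, 1208 genes were hosts of an intronic site with higher accessibility in exudate, and 956 of them were tested. EdgeR called 0 of these in either direction, beside 0.0649% of all genes higher and 0.114% lower, and 257 of them had an unadjusted p under 0.05, as had 2848 of all 12330 genes. Their median log2 fold change was 1.32, against 0.14 over all genes, and their median log2 CPM was 4.86 against 2.19. DESeq2 called 96 of 830 higher (11.6%) and 35 lower (4.22%), beside 4.97% and 10.9% of all 8846 genes with an adjusted p. Without exudate library 5 edgeR called 37 of 953 higher and 1 lower, beside 0.998% and 0.614% of all genes, and 0 without any other single library. With the column number as a term it called 22 higher and 3 lower (2.3% and 0.314%), beside 0.762% and 0.762% of all genes. All bone marrow libraries carry the number 100, and the part of the number in these results was not tested further.

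The values of 10 hosts show this spread. Tnfaip3 had 717, 698, 292, 1230 and 0 CPM in the 5 exudate libraries and 274, 516, 0.179, 43.3 and 2.84 in blood, so exudate library 5, the last of the 5, lay below all those of blood. Pde4b had 658, 787, 452, 823 and 31.7 CPM in exudate and 378, 367, 17.5, 114 and 48.3 in blood. In 4 of the 5 exudate libraries it was above every blood library. Cflar had 344, 192, 244, 140 and 105 CPM in exudate and 230, 362, 116, 44.8 and 39.0 in blood, and the groups overlapped.

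Trim30a had 2250, 1230, 2290, 1970 and 2050 CPM in exudate, 2030, 2510, 471, 607 and 273 in blood, and 303, 270 and 266 in bone marrow. The exudate libraries were all above bone marrow and overlapped blood. Il1r2, a host of closed sites, had 4960, 6890, 4680, 5020 and 1750 CPM in exudate and 4440, 7960, 2170, 1190 and 1650 in blood, again overlapping. For all 10 hosts, exact two-sided permutation tests of log2(CPM + 1) between 5 exudate and 5 blood libraries gave p from 0.135 for Trim30a to 0.738 for Lrrc8d, and adjusted p of 0.466 to 0.738 over the 10 genes. The smallest p this design allows is 0.00794.

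**Figure D3:**
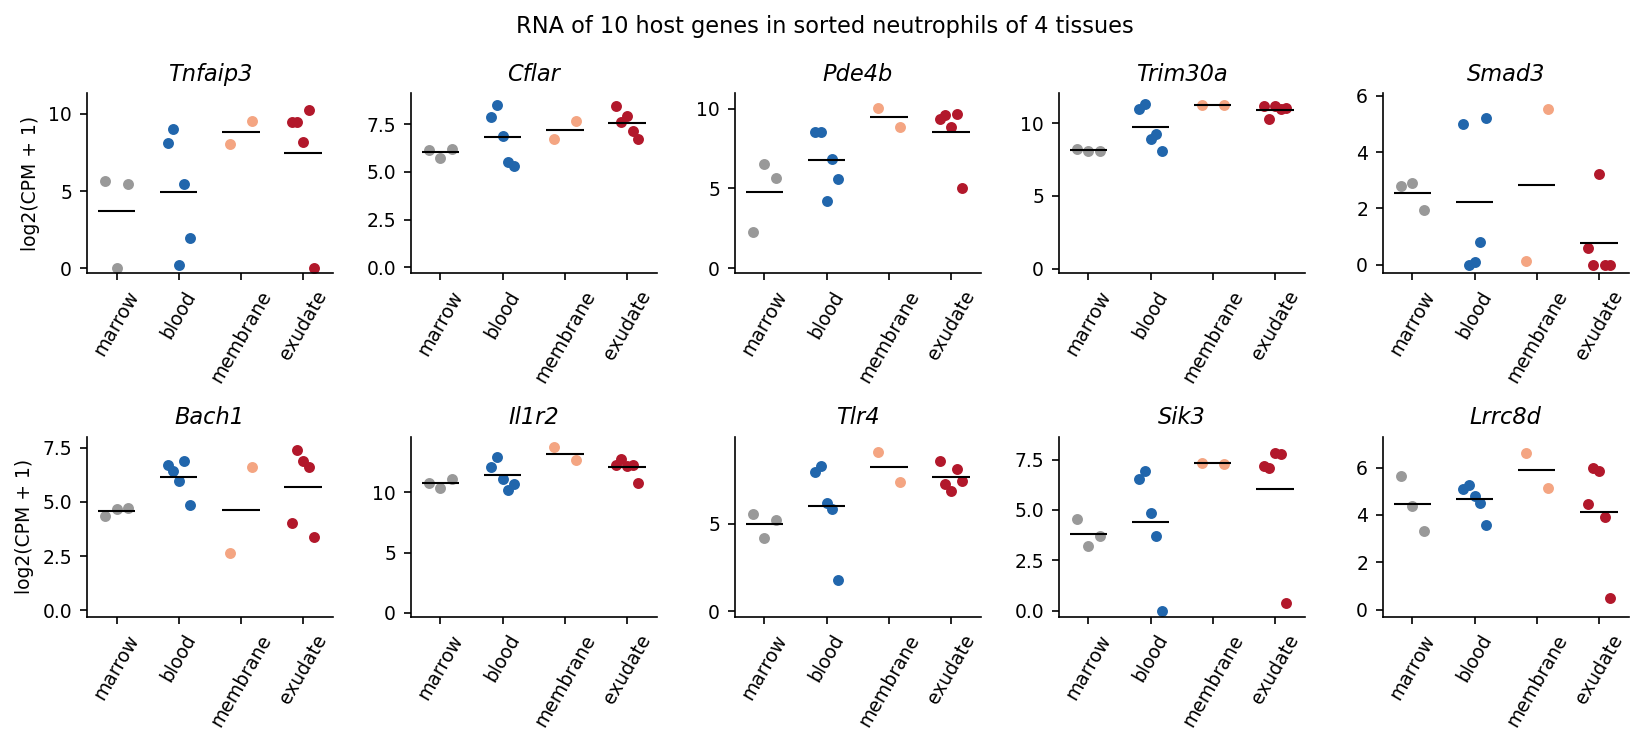
RNA of 10 host genes as log2(CPM + 1) (vertical axis) in each library of sorted neutrophils by tissue, with the mean as a bar. The exudate and blood libraries overlap in each of the 10 genes. Single libraries lie near 0 for Tnfaip3 and Sik3, and most exudate and blood libraries do for Smad3.

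In cultured wild-type neutrophils, a larger share of the hosts of opened sites than of all genes was called higher after zymosan. In the first set of cultures, 654 of the 768 hosts were tested, 406 (62.1%) were called higher and 182 (27.8%) lower, beside 35.7% higher and 39.9% lower over all 12899 genes, with a median log2 fold change of 0.57 against -0.07. In the second set, 650 were tested, 428 (65.8%) were higher and 146 (22.5%) lower, beside 36.3% and 32.1% over all 13779 genes, with a median of 0.60 against 0.05. Of the 639 hosts tested in both sets, 373 were higher and 125 lower in both, and 37 were called in opposite directions. Hosts of closed sites lay near the background, 123 of 320 (38.4%) higher and 131 (40.9%) lower in set 1, and 140 (43.8%) and 115 (35.9%) in set 2. RLE scaling moved the median of all genes by 0.125 (log2) in set 1, and 73.8% of the called hosts were then higher, against 69.0%.

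The hosts were also more abundant than other genes, with a median log2 CPM of 6.15 against 3.22 in set 1. Shares were therefore also compared within 4 ranges of abundance, chosen after the data were seen, and in each range of both sets the share higher was above that of all genes. At a mean log2 CPM of 6 to 8, 62.4% of 186 such hosts were higher and 33.3% lower in set 1, beside 49.2% and 43.2% of all 1840 genes of that range. Hosts of unlisted sites had 43.6% and 48.5%. Below 4, 55.7% of 176 hosts were higher, beside 30.4% of all genes. In set 2 the values were 63.4% against 57.7% at 6 to 8, and 50.5% against 26.5% below 4. Of the hosts of closed sites, 41.1% were higher at 6 to 8 beside 49.2% of all genes in set 1, and 52.9% beside 57.7% in set 2. At 8 or more these shares were 53.8% beside 67.1%, and 71.7% beside 79.7%. At 4 to 6 they were 33.8% beside 32.7%, and 40.9% beside 40.6%, and below 4 31.9% beside 30.4%, and 25.4% beside 26.5%. By number of opened sites, 59.5% of hosts with 1, 65.3% with 2 and 72.4% with 3 or more were higher in set 1, and 62.3%, 71.4% and 77.6% in set 2, with medians of 0.46, 0.62 and 1.05 in set 1.

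**Figure D4:**
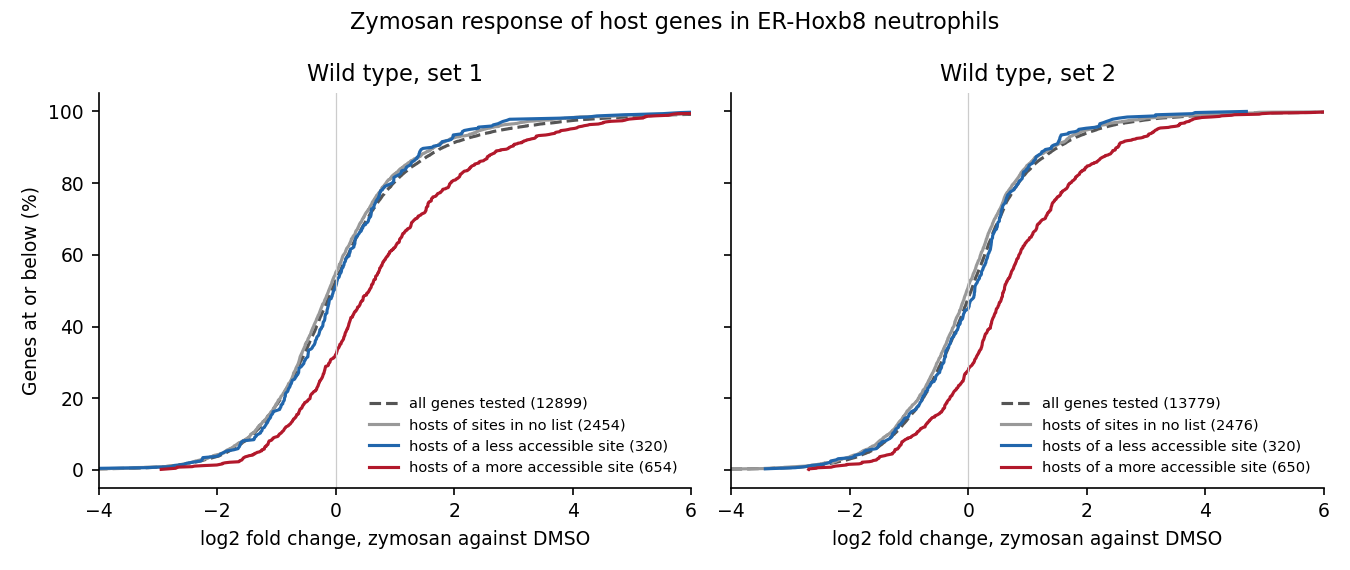
Cumulative share of genes (vertical axis, %) by log2 fold change of zymosan against DMSO (horizontal axis) in wild-type ER-Hoxb8 neutrophils of 2 sets of cultures. The curve of the hosts of opened sites lies to the right in both sets, with medians of 0.57 and 0.60, and that of the hosts of closed sites follows all genes.

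The largest rises among these hosts, at a mean log2 CPM of at least 4 and called in both sets, began with Nr4a3 and the NF-kB pathway genes Traf1 and Tnfaip3. Nr4a3, an orphan nuclear receptor of the immediate early class, had 13.8 and 14.4 CPM with DMSO and 1680 and 1730 with zymosan in set 1, a log2 fold change of 6.92 ± 0.05 (SE, n = 2 and 2, edgeR adjusted p = 1.31e-68), and 24.8 and 25 against 1370 and 1380 in set 2. Traf1, an adaptor of tumour necrosis factor receptors, had 1.55 and 1.57 against 77.8 and 80.2 in set 1 and 2.17 and 1.74 against 63.4 and 57.7 in set 2. Tnfaip3 had 142 and 135 against 4190 and 4150 in set 1 (4.91 ± 0.04) and 343 and 336 against 2820 and 2790 in set 2. In each case the treated libraries lay far above the controls, with no overlap.

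Bcl2a1a rose by 4.84 ± 0.06 in set 1, Rasgef1b, an exchange factor of Ras-family proteins, by 4.57 ± 0.05, Hspa4l, a heat shock protein, by 4.51 ± 0.04, Bcl2a1b by 4.47 ± 0.07 and Adora2a, an anti-inflammatory adenosine receptor, by 4.43 ± 0.09. Set 2 gave rises of 4.49, 3.15, 3.73, 4.24 and 3.55. The largest falls were in Chsy1, which builds chondroitin chains (118 and 108 CPM with DMSO, 15.5 and 14 with zymosan), Rara, a retinoic acid receptor (121 and 142, 19.6 and 17.4), Pfkfb4, a regulator of glycolysis (157 and 166, 25.4 and 24.3), and Plekhg3, a regulator of actin (90.1 and 95.0, 14.7 and 14.2). Hosts of opened sites thus included genes that rose and genes that fell in culture. Of the strongest hosts named above, Rab11fip1 rose by 3.38 and 3.01 in the 2 sets, Ralgds by 3.23 and 2.95, and Msl2 by 0.17 and 0.32, while Gm31718 gave 0.04 and 0.03 and was not called.

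By list, all 7 survival and death hosts of an opened site were higher after zymosan in set 1, with a median of 3.07, and 10 of the 11 NF-kB hosts, with a median of 2.68, all but Map3k14 (-0.22). Of the whole lists 16 of 25 and 17 of 22 were higher. Feedback inhibitors had 5 of 6 hosts higher and Ptpn6 lower, and 17 of 24 of the whole list higher. Interferon-stimulated hosts had 6 of 8 higher, against 14 of 30 of the whole list, with Slfn1 (-2.21 and -0.54) and Trim30a (-0.91 and -0.11) lower in both sets. The Trim30a intron was thus opened in exudate while its RNA was lower after zymosan in culture. Of the 13 adhesion and migration hosts 3 were higher and 4 lower, and of the whole list 13 and 13 of 32. Csf1r (-0.20) and Cx3cr1 (-1.63) were lower in set 1. Trac was higher in both sets (4.65 and 2.44).

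Among hosts of closed sites, Zfp652, a zinc finger repressor, had 79.5 and 78.3 CPM with DMSO and 14.8 and 15.1 with zymosan in set 1, and fell by 2.74 in set 2. Stat5b, a signal transducer of G-CSF and GM-CSF receptors, fell by 1.83 and 1.76. Others rose. Dusp4, a phosphatase of MAP kinases, had 3.91 and 3.34 against 208 and 207, Plaur had 107 and 111 against 753 and 739, Hdc, which makes histamine, 340 and 353 against 1590 and 1530, and Il1r2 269 and 275 against 740 and 701. Loss of accessibility in exudate and RNA in culture thus went in the same direction in some hosts and in opposite directions in others.

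RNA of the targeted gene was higher than in wild type in 3 of the 6 labelled lines and lower in the other 3, where it was still present. After zymosan, Cebpb had 2880 and 2190 CPM in the libraries labelled CEBPB-/- and 1070 and 938 in wild type, and Junb 2080 and 2160 in those labelled JUNB-/- against 2380 and 2230. Irf5 had 112 and 108 against 136 and 137, and Relb 377 and 369 against 469 and 447. With DMSO, Runx1 had 156 and 152 in the libraries labelled RUNX1-/- against 59.3 and 61.5, and Klf6 851 and 852 in those labelled KLF6-/- against 622 and 638. The place of each edit is not given in the sources used here, so RNA outside it checks nothing. All directions below rest on the labels. CEBPB-/- and JUNB-/- cells share their wild-type libraries, as do IRF5-/- and RELB-/- cells, and RUNX1-/- and KLF6-/- cells, so the lines are given side by side.

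After zymosan, hosts of opened sites were higher more often than lower in the libraries labelled CEBPB-/-, 415 of 654 (63.5%) higher and 147 (22.5%) lower, beside 35% and 32.9% of all genes. In those labelled JUNB-/- 365 (55.8%) were higher and 218 (33.3%) lower, beside 39.1% and 37.4%. In those labelled IRF5-/- 327 of 650 (50.3%) were higher and 192 (29.5%) lower, beside 29.6% and 30.8%, and in those labelled RELB-/- 281 (43.2%) and 210 (32.3%), beside 27.1% and 28.9%. Abundant genes of any kind were called higher more often. At a mean log2 CPM of 6 to 8 the share of these hosts higher was 78.0% in CEBPB-/- cells, beside 70.1% of all genes of that range, 76.3% beside 76.8% in JUNB-/- cells, 64.4% beside 63.9% in IRF5-/- cells and 60.7% beside 63.5% in RELB-/- cells. In CEBPB-/- cells their share exceeded that of all genes in each of the 4 ranges. In the other lines the direction changed with the range. In JUNB-/- cells their share was larger only below 4 (21.6% beside 20.1%), and at 8 or more it was 74.3% beside 81.4%. In IRF5-/- cells it was 24.5% beside 14.6% below 4, 37.1% beside 41.2% at 4 to 6 and 74.8% beside 73.4% at 8 or more. In RELB-/- cells it was larger below 4 and at 4 to 6 (48.4% beside 41.9%), and smaller at 8 or more.

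With DMSO, hosts of opened sites were lower in the libraries labelled RUNX1-/-, 394 of 638 (61.8%) lower and 164 (25.7%) higher, beside 37.1% and 38.2% of all 13608 genes. At a mean log2 CPM of 6 to 8 the shares lower were 71.8% of 206 hosts and 55.3% of all genes. At 8 or more they lay close together, at 78.4% of 148 hosts and 74.7% of all genes. At 4 to 6 they were 50.8% and 32.4%, and below 4 42.0% and 29.2%. Hosts of closed sites were lower at 68.8% over all and 80.4% at 6 to 8. In those labelled KLF6-/- 278 hosts of opened sites (43.6%) were higher and 254 (39.8%) lower, beside 31.2% and 35% of all genes, and 58.3% beside 58.5% were higher at 6 to 8. In 4 lines a larger share of the hosts of closed sites than of all genes in that range was higher: 88.9% beside 76.8% in JUNB-/- cells, 80.5% beside 63.9% in IRF5-/- cells, 78.2% beside 63.5% in RELB-/- cells and 78.3% beside 58.5% in KLF6-/- cells. In CEBPB-/- cells the shares were 70.0% and 70.1%. The excess of closed-site hosts held in each of the 4 ranges in JUNB-/-, RELB-/- and KLF6-/- cells. In IRF5-/- cells it held below 4 and at 4 to 6, but at 8 or more the shares were 73.6% and 73.4%. In CEBPB-/- cells it held only below 4, with shares of 43.1% and 48.7% at 4 to 6 and 88.5% and 88.6% at 8 or more.

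**Figure D5:**
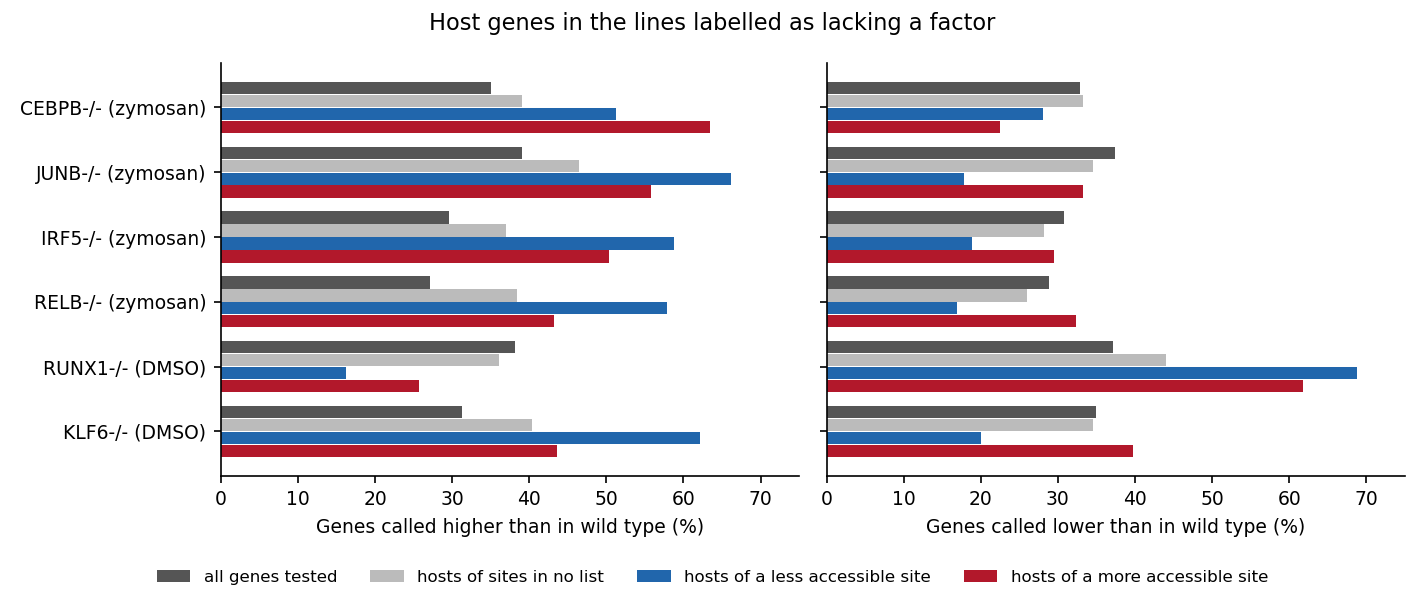
Share of genes (horizontal axis, %) called higher (left) or lower (right) than in wild type in each of the 6 labelled lines, for all genes tested, hosts of unlisted sites, and hosts of closed or opened sites. Hosts of opened sites are lower at 61.8% in RUNX1-/- cells, and 22.5% to 39.8% are lower in the other 5 lines.

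The largest falls among the hosts of opened sites recurred between lines. App, the amyloid precursor protein, with 2 of 19 sites opened, had 0 CPM in both CEBPB-/- libraries against 68.6 and 69.4 in wild type, at least 967-fold lower at a floor of 3 counts over the group. It had 0.0534 and 0.0451 in JUNB-/- cells, 1.71 and 1.91 in RELB-/- cells against 115 and 114, 4.81 and 3.8 in IRF5-/- cells against the same, and 0.454 and 0.673 in KLF6-/- and 0.643 and 0.709 in RUNX1-/- cells against 89.5 and 90.4. Mctp2, a calcium-binding membrane protein, had 0 CPM in CEBPB-/- (wild type 25 and 27.0, at least 364-fold) and in RUNX1-/- cells (33.2 and 31.0, at least 607-fold), and 0.505 and 0.43 in RELB-/- cells (20.4 and 20.5). Lgmn, a lysosomal protease, had 0.133 and 0.0781 in CEBPB-/- and 0.107 and 0.0451 in JUNB-/- cells against 82.5 and 83.4. In each of these comparisons the libraries of the line lay below both wild-type libraries.

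Alcam, an adhesion molecule, had 0 CPM in JUNB-/- cells against 81.5 and 83.2, at least 1630-fold lower. Mfsd7a, a membrane transporter, had 0.0306 and 0.0273 in RUNX1-/- and 0 in KLF6-/- cells against 17.1 and 17.0, the last at least 317-fold lower. Pla2g7, an enzyme that inactivates platelet-activating factor, had 1.79 and 1.29 in RELB-/- cells against 53.4 and 50.5. Fmnl2, A1cf and Palld were called lower in IRF5-/- cells at wild-type values of 0.544 to 1.54 CPM, and Fmnl2 also in RUNX1-/- and KLF6-/- cells, calls that DESeq2 did not make for the last 2.

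Among rises, Ltf, the granule protein lactoferrin, had 3910 and 3830 CPM in JUNB-/- cells against 421 and 426, 3510 and 3480 in RELB-/- cells against 789 and 794, and 3060 and 3020 in KLF6-/- cells against 705 and 710. Mgll, which degrades monoacylglycerols, had 32.8 and 34.9 in JUNB-/- cells against 0.686 and 0.576, and Ifit1bl2, an interferon-induced protein, 59.1 and 61.6 against 4.07 and 4.64. Morc3, a nuclear ATPase, had 409 and 425 in IRF5-/- cells against 70.2 and 74.1, and Gm15729 8.88 and 11 against 1.37 and 1.36. In RUNX1-/- cells Scimp, an adaptor of immune cells, had 44.8 and 48.6 against 1.16 and 1.04, Atp6v0d2, a proton pump subunit, 30.2 and 26.8 against 0.543 and 0.974, and Ccdc162 1.38 and 1.69 against 0.0775 and 0. Klhl6, an adaptor of a ubiquitin ligase, had 327 and 331 in KLF6-/- cells against 80.3 and 85.3.

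In CEBPB-/- cells Gm15729 had 4.74 and 7.26 against 1.05 and 0.612, and Asb2, which marks filamins for degradation, 4.54 and 4.68 against 0.777 and 0.468. Other rises chosen by size were below 1 CPM in every library compared, in Ccdc146, Gm20513, 8030442B05Rik, Hecw2 and Gm13986. The call of Ccdc146 was lost without wild-type replicate 1, at a log2 fold change of 2.38, and those of Gm20513, 8030442B05Rik and Hecw2 without replicate 1 of the labelled line (2.21, 2.42 and 1.05) or of wild type (2.12, 1.87 and 1.58).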

How the data were processed

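The authors deposited raw counts of read pairs per gene, made with featureCounts 1.5.0-p2 (tissues, counted without strand) and 1.6.3 (ER-Hoxb8 cells) per the file headers. They also deposited lists of differential sites whose values are -log10 adjusted p, and merged sites. The score of the merged sites, of unknown scale, and the other deposited numbers (merged peaks, width) were not used. The submitters' processing notes name cutadapt, Bowtie2, MACS2, deepTools, DESeq2 and STAR.

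Sites were classed by the exons of the tissue count table, with a gene start at the outermost exon, and joined to the lists by name. Symbols matched 50376 of 50600 gene IDs. Counts were fitted with edgeR 4.0.16 in R 4.3.3 (TMM scaling, filterByExpr with a minimum count of 10, quasi-likelihood test), 1 fit per table (12330, 12899, 13779 and 13608 genes), with calls at a Benjamini-Hochberg adjusted p under 0.05. The fitted biological coefficient of variation was 1.86 for tissue and 0.019 to 0.0278 for ER-Hoxb8 libraries. The fits were tested on simulated data. Tissue columns match only a group, so a replicate there is a column, and their tags (100 or 300, m1 to m4) are not explained by the labels. 28 count columns were not used. The floor of 3 counts covers counting error only. No genome was used here.

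The members and gene lists were chosen with earlier results of these data known. Named sites are the 12 highest opened and 10 highest closed ones, 1 per host gene, the first 4 each way of other lists, the hosts with the most sites and up to 4 hosts per gene list. Named RNA values are the 8 largest rises and 4 largest falls with zymosan and the 3 largest called changes each way per line among hosts of opened sites. Other members named, and the 10 hosts with tissue values, were chosen after values were seen. Alternatives were DESeq2 1.42.0, RLE scaling, no filter, a replicate block, the tissue column tags, each library left out, other site distances, overlaps and a stricter threshold.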

Additional observations from a re-analysis of the deposited data

Results flagged for a closer look

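Of 20 groups of 5 tissue libraries examined for the 10 host genes, 1 had a library far from the others, where chance gives about 1 in 20. Smad3, with 5 opened and 1 closed intronic sites, had 8.31 CPM in 1 exudate library, against 0.495 in the next highest and 0 in the other 3. Its values in blood were 31.1, 0, 0.0596, 0.759 and 36.1 CPM.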

How the results depend on the processing

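For the 10 lists, the number of intronic sites stayed within 1.5 times under limits of 500 and 2000 bp, an adjusted p under 0.01, sites wholly inside a gene and membership by overlap of both intervals instead of by name. In the ER-Hoxb8 comparisons, the counts of hosts called higher and lower stayed within 1.5 times under RLE scaling, DESeq2, no filter, sites over 2000 bp from gene starts and each library left out. The tissue counts did not. For exudate against blood, hosts of opened sites called higher were 10 with DESeq2, 3 with no filter on low counts and 8 with a replicate block of the shared column tags, and those called lower 19, 2 and 1, against 0 and 0. For exudate against bone marrow, the hosts of sites with higher accessibility in exudate than in bone marrow gave 96, 45 and 46 higher and 35, 3 and 5 lower, and 22 and 3 with the column number as a term, against 0 and 0. Leaving out each library gave 0 to 37 higher and 0 to 1 lower, above 0 only without exudate library 5. The cause was not tested. RLE scaling moved the median of all genes by -0.273 for exudate against blood and by -0.403 for exudate against bone marrow.

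The replicate numbers of the ER-Hoxb8 labels were not taken as pairs, since samples with the same number did not deviate together. With a replicate block the hosts called higher were 406 in set 1 and 427 in set 2, against 406 and 428, and no block count moved by over 1.5 times. The tissue columns carry no replicate number of the labels, but some tags (a number and m1 to m4) recur across tissues. The tags were not taken as pairs: the labels do not say that a tag marks an animal, and the deviations of the 3 exudate and blood libraries with the same tag correlated at 0.0739, 0.056 and -0.0259. Both fits with tags were chosen after seeing the data. With the replicate block of tags, 0.316% and 0.26% of all genes were higher and lower against blood, and 1.42% and 0.933% against bone marrow. Over the single genes named, 465 alternative values kept their call, 13 lost it and 0 reversed. The part of depth in the tissue results was not tested.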
